A study of Rattus norvegicus with 44 samples.

Results

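The collagen genes of the rat hippocampus were taken as all rows of the deposited tables whose symbol is that of a collagen chain and whose value reached 10 normalized reads in at least 6 libraries of CA1 or of the dentate gyrus (DG). Of 43 collagen symbols among 20171 genes, 34 met this rule, 33 of them in CA1 and 31 in DG. The rats were male. Young vehicle rats (n = 8) received saline by intraperitoneal injection, young LPS rats (n = 8) were given lipopolysaccharide, a cell wall endotoxin of bacteria, by the same route (1 mg/kg), and aged vehicle rats (n = 6) received saline. All were injected once a week for 7 weeks, so all 3 groups share the handling and the injections. Young rats were 5 to 7 months old and aged rats 14 to 16 months old. One hippocampus of each of the 22 rats was divided into CA1 and DG 48 hours after the seventh injection, and polyadenylated RNA of both was sequenced in 44 libraries. The strain is not given in the sources used here. No aged rats received LPS, so the response to LPS is known for young rats only. The design compares LPS with vehicle in young rats, aged with young vehicle rats, and the LPS group with the aged group.

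Collagens are extracellular proteins in which chains wind around each other into a triple helix. Fibril-forming collagens I, II, III, V and XI, with the related XXIV and XXVII, build rope-like fibres, and in the brain collagens I and III lie mainly in the meninges and the walls of larger vessels. Collagen IV forms the sheet of the basement membrane around every capillary and beneath the meninges. The remaining members attach to fibrils, form beaded filaments, cross the membrane, or release fragments such as endostatin that act on vessels.

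The members comprised 11 fibrillar chains, all 6 chains of collagen IV, 4 chains of collagen VI, 8 fibril-associated chains, 2 endostatin-type chains (Col15a1 and Col18a1), the network-forming chain Col8a2, the membrane-spanning chain Col25a1 and the anchoring-fibril chain Col7a1. Col1a1, Col1a2 and Col3a1 were measured in CA1 only and were not analysed here in DG. Col9a1 met the rule in DG only, with 9 libraries at 10 or more, against 5 in CA1. Col14a1 reached 10 in 14 libraries in CA1 and 8 in DG, and Col2a1 in 20 and 13. Outside the rule but nearest to it were Col8a1, with 1 and 4 libraries, and Col26a1, with 1 and 2. Levels are not compared between genes here, because transcript lengths were not used, nor between regions, because the tables were normalized separately.

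Libraries held between 12130183 and 23519788 reads. Some of them stood apart in the markers of tissue that borders the hippocampus. In DG, the mean of 11 detected meningeal fibroblast markers, on the log2 scale and centred over the 22 libraries, was 1.73 in rat 2526 and 2.01 in rat 2572 (both young vehicle) and 1.82 in rat 2532 (aged vehicle), and at most 0.13 in the other 19. The summed level of these markers ran from 309 to 2458 normalized reads in young vehicle, from 312 to 663 in young LPS and from 286 to 1863 in aged vehicle. In CA1, rat 2526 alone stood apart in markers of bordering tissue. Its meningeal mean was 1.21, and its 12 choroid plexus markers summed to 9939, against at most 1033 in any library of the young LPS or aged groups. Ttr, the transthyretin made by the choroid plexus, reached 8469 there, against a median of 62.6 in its group. The collagen genes themselves also differed in CA1 of rats 2572 and 2532. Over the 33 tested, rat 2572 had the lowest centred log2 mean of the 22 libraries, -0.63, and the lowest value of 9 genes. Rat 2532 held the highest value of 7 genes and the lowest of 7. The libraries of these 3 rats are therefore named throughout. Results are also given without them, which leaves out these collagen values together with the high marker levels. Markers of CA1 pyramidal neurons summed to between 25967 and 61010 in CA1 and to between 4040 and 18643 in DG. Markers of dentate granule neurons summed to between 1250 and 8045 in CA1 and to between 7318 and 13613 in DG.

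LPS did not change the level of any collagen gene past the threshold in either region, and neither did age. Between young LPS and aged vehicle rats, 1 gene differed in CA1 and none in DG. Tests were made with limma on log2(value + 1), with p-values adjusted over all genes of a region and a threshold of 0.05. In CA1, LPS changed 0 of 33 collagen genes (0% of the 14915 genes tested were called), and 0 of 33 had an unadjusted p below 0.05, against 6.87% of all genes. Age changed 0 of 33 (0.0134% of all genes called), again with 0 at an unadjusted p below 0.05, against 12.6% of all genes. edgeR and DESeq2 on the recovered reads also called 0 in both.

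In DG, LPS changed 0 of 31 (0.0134% of the 14904 genes tested were called), with 2 of 31 at an unadjusted p below 0.05, against 7.53% of all genes. Age changed 0 of 31 (0.0134% of all genes called), with 4 of 31 at an unadjusted p below 0.05, against 2.99%. edgeR and DESeq2 called 0 in both. Without rats 2526, 2572 and 2532, age changed 1 of 31 in DG, Col11a1, which is described with the fibrillar chains. The share of all genes called in that fit is not given here. The median log2 change over the collagen genes was 0.022 with LPS and -0.024 with age in CA1, where the medians of all genes were 0.012 and 0.0027. In DG it was 0.19 with LPS, with 22 of 31 changes above 0, where 48.8% of all genes were above 0. This median was 0.058 without the 3 rats, with 20 of 31 above 0. With age the DG median was 0.0041, 16 of 31 above 0, where 51.8% of all genes were. Leaving out the 3 rats turned it to -0.099, with 11 of 31 above 0, and moved the age median of CA1 to -0.12, also with 11 above 0. No collagen gene of DG was without overlap between young vehicle and LPS (0.0403% of all genes) or between young and aged vehicle (0.0738%). The LPS and age comparisons share the young vehicle libraries. In bulk tissue, fewer cells of a type and less RNA per cell cannot be told apart.

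**Figure D1:**
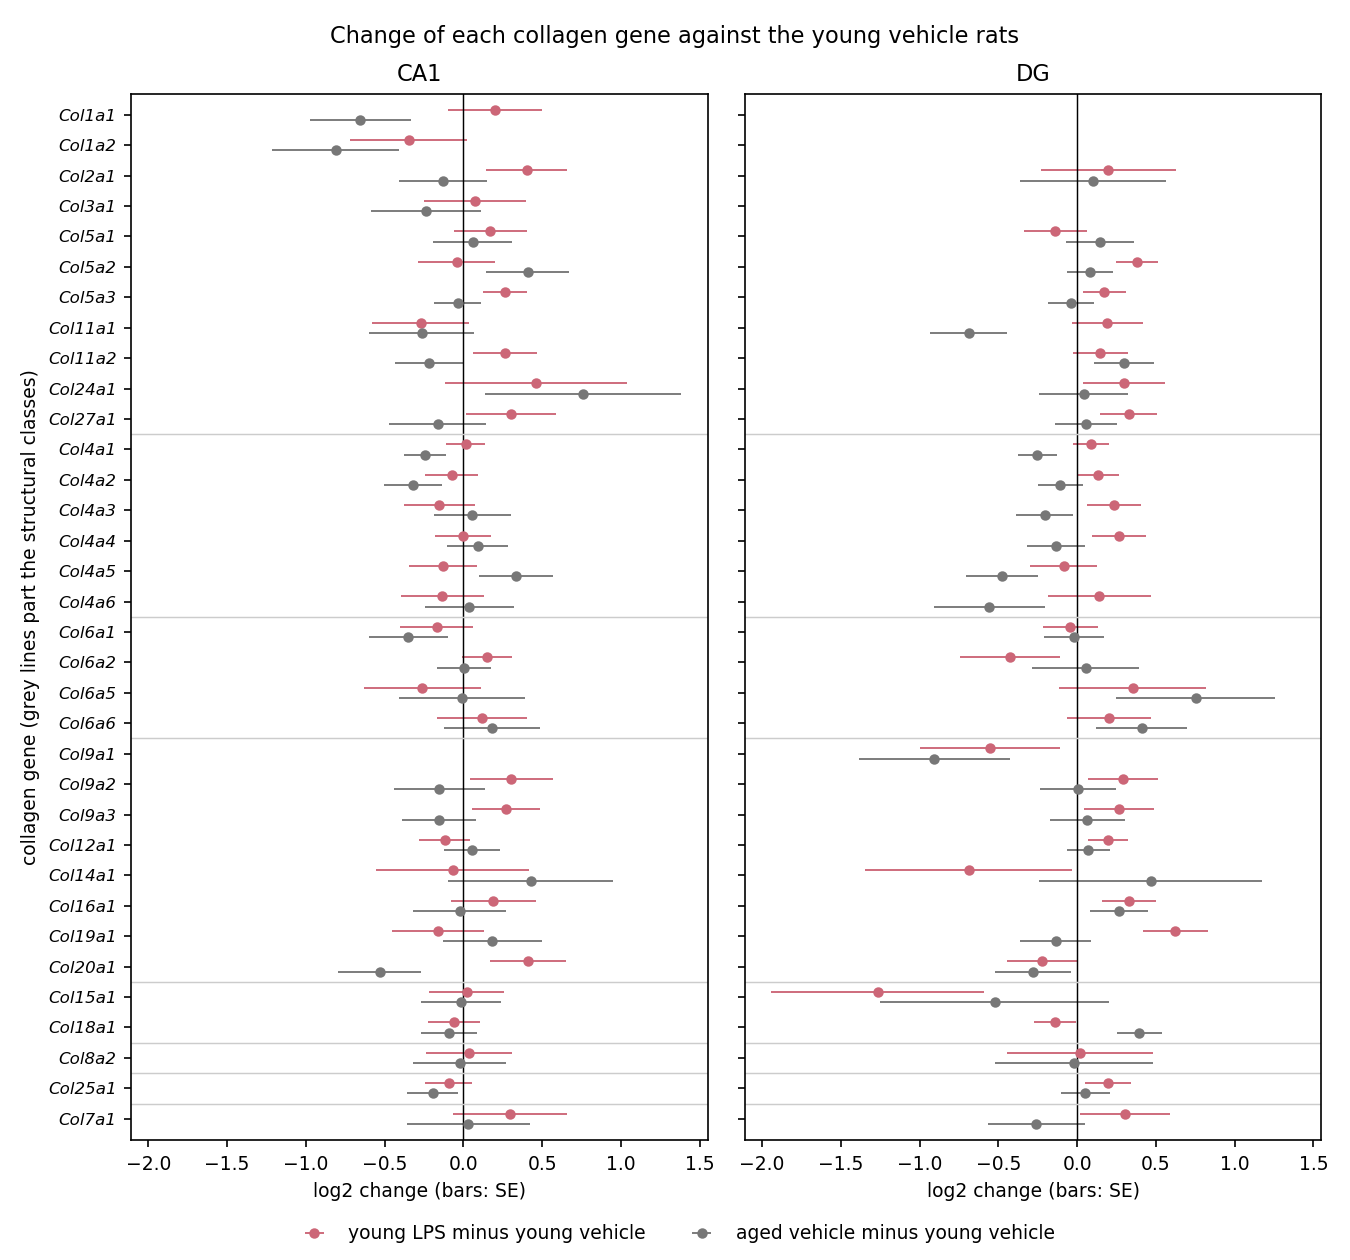
Log2 change of each collagen gene in CA1 (left) and DG (right) for young LPS (red) and aged vehicle (grey) against young vehicle rats. Points are limma estimates and bars their SE, with genes grouped by structural class. No change passed the threshold, and most bars reach or come near 0. Col11a1 with age in DG lies at -0.69 and Col19a1 with LPS in DG at 0.62.

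Young LPS and aged vehicle rats were compared with each other to set the effect of inflammation beside that of age. In CA1, 1 of 33 collagen genes was called, Col20a1, where 8.73% of all genes were called, so the share of collagen genes was below the background. The call was in the direction higher in young LPS, which held for 3.49% of all genes, against 5.24% lower. The median change of the collagen genes was 0.11, 21 of 33 above 0, where 52.0% of all genes were. None of the 33 was without overlap between these groups, against 0.838% of all genes. A further 2, Col1a1 and Col11a2, had an unadjusted p below 0.05, against 35.8% of all genes for any such p. In DG, limma called 0 of 31 (0.0134% of all genes called), with 7 of 31 at an unadjusted p below 0.05, against 9.10% of all genes. There edgeR called 0 (0.00671% of all genes called) and DESeq2 1, Col11a1 (0.148% of all genes called). The background in CA1 was itself unsteady: leaving out 1 rat at a time gave between 0 and 3399 called genes instead of 1302.

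Among the fibrillar chains, collagens I and III were set by a few libraries of CA1. Col1a1 encodes the main chain of collagen I and Col1a2 its partner chain, and both are defining markers of collagen-producing fibroblasts. Col1a1 ran from 44.2 to 253 normalized reads in young vehicle (median 57.6), from 64.6 to 121 in young LPS (median 96.8) and from 21.9 to 68.0 in aged vehicle (median 57.8). The highest value was that of rat 2526, the next that of rat 2572 at 138, and the lowest that of rat 2532. All 3 ranges overlapped, and all 8 young LPS libraries lay above the young vehicle median.

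Col1a2 ran from 17.9 to 138 in young vehicle (median 37.6), from 19.7 to 47.5 in young LPS (median 36.0) and from 15.0 to 53.6 in aged vehicle (median 18.5). Rats 2526 and 2572 were again the highest, the latter at 101. Col3a1, which encodes collagen III of stretchable tissue such as vessel walls, ran from 28.5 to 236 in young vehicle (median 39.5), from 39.0 to 64.8 in young LPS (median 53.4) and from 24.4 to 96.3 in aged vehicle (median 36.8). Here rat 2526 was the highest and rat 2572 the lowest of its group, so the latter library was high for collagen I but not for collagen III. The 7 other young vehicle libraries held at most 62.8.

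**Figure D2:**
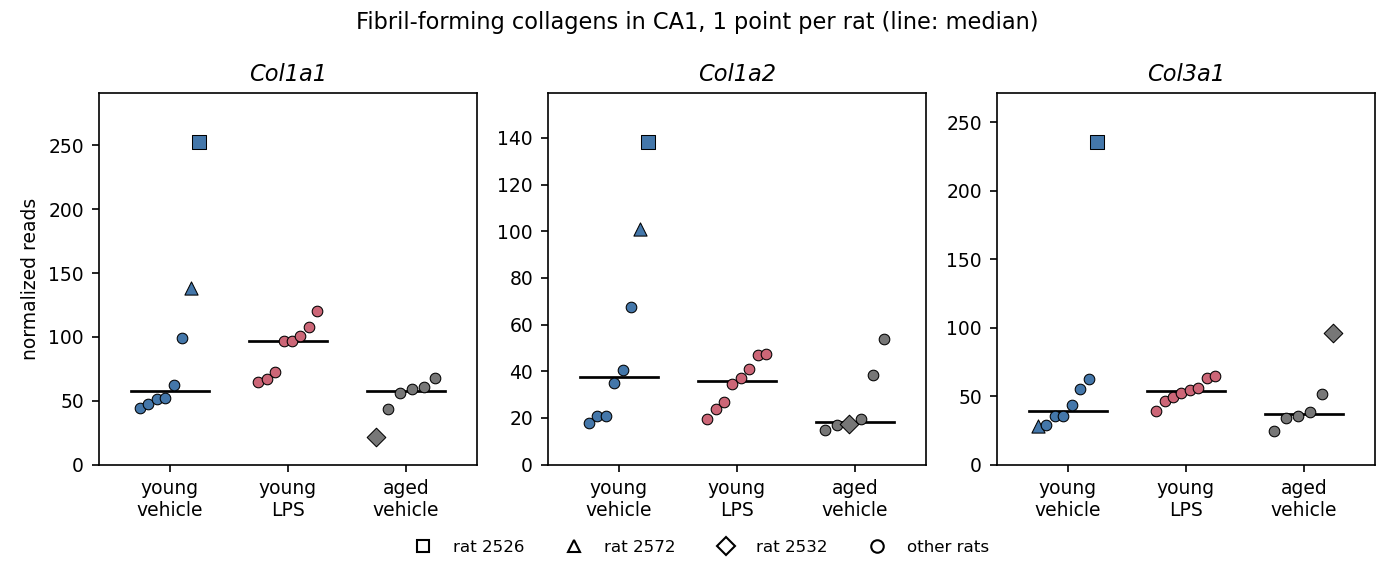
Normalized reads of Col1a1, Col1a2 and Col3a1 in CA1, 1 point per rat, by group, with the group median as a line and 3 rats marked by shape. The square (rat 2526) is the highest point of each panel, at 253, 138 and 236 normalized reads, and the triangle (rat 2572) is second for Col1a1 and Col1a2 and lowest of its group for Col3a1.

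The group means followed these libraries. Young vehicle libraries averaged 93.7 ± 72.0 (SD, n = 8) for Col1a1, LPS libraries 90.9 ± 20.5 (SD, n = 8) and aged libraries 51.7 ± 16.6 (SD, n = 6). Its log2 change with age was -0.65 (SE 0.32, limma adjusted p = 0.393), and without rats 2526, 2572 and 2532 it was -0.0075 (SE 0.20, adjusted p = 0.996). With LPS the change was 0.20 (SE 0.30, adjusted p = 0.813), and 0.62 (SE 0.18, adjusted p = 0.337) without the 3 rats. Both values of collagen I against young vehicle thus moved by more than their SE when these rats were left out. Between young LPS and aged vehicle, Col1a1 differed by 0.85 (SE 0.32, adjusted p = 0.0717), and by 0.63 (SE 0.19, adjusted p = 0.0974) without the 3 rats.

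For Col1a2 the log2 change with age was -0.81 (SE 0.40, adjusted p = 0.393), and -0.24 without the 3 rats. For Col3a1 the changes were 0.073 with LPS (SE 0.32, adjusted p = 0.943) and -0.24 with age (SE 0.35, adjusted p = 0.733). With the meningeal marker mean in the fit, the LPS change of Col3a1 was -0.085. The levels of Col1a1 varied more closely with those of Col1a2 than with those of Col3a1: within groups the log2 SD was 0.65 for Col1a1 and 0.80 for Col1a2, and 0.56 for their difference, while the difference of Col1a1 and Col3a1 had an SD of 0.78. The ratio of Col1a1 to Col3a1 reads ran from 0.227 in rat 2532 to 4.86 in rat 2572, with a median of 1.51. In the current rat annotation (GRCr8) the span of Col1a1 overlaps that of Sgca. Spans include introns, and whether exons of both overlap was not examined. The use of strand in counting is not given in the sources used here. Reads from any exonic bases that both genes share therefore could not be told apart.

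Col11a1, a chain of collagen XI that limits the width of fibrils in cartilage, separated young LPS from aged vehicle libraries in DG. Its young vehicle libraries overlapped both of these groups. Young LPS libraries ran from 258 to 443 normalized reads (median 324) and aged vehicle libraries from 153 to 222 (median 176), and these groups did not overlap. Among the 31 collagen genes it was the only one without overlap in this comparison, where 0.443% of all genes had none. Young vehicle libraries ran from 123 to 519 (median 332). The 2 lowest of them were rats 2572 at 123 and 2526 at 154, and the other 6 lay between 279 and 519, above every aged library.

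The log2 change of Col11a1 with age in DG was -0.69 (SE 0.24, limma adjusted p = 1.00). Without rats 2526, 2572 and 2532 it was -1.04 (SE 0.17, adjusted p = 0.0199), past the threshold. It was also called with library weights, at -0.89 (adjusted p = 0.0274). Between young LPS and aged vehicle the difference was 0.88 (SE 0.24, adjusted p = 0.270), and 0.88 (SE 0.16, adjusted p = 0.0530) without the 3 rats. Over all alternatives the difference lay between 0.74 and 0.94, with an adjusted p between 0.0205 and 0.561. With LPS it was 0.19, and -0.17 without the 3 rats, so its direction turned. In CA1 the changes of Col11a1 were -0.27 with LPS and -0.27 with age. Leaving out the 3 rats moved them to -0.56 and -0.76 (adjusted p = 0.342 and 0.507), and library weights called the age change at -0.74 (adjusted p = 0.0462). Rat 2532 held the highest value, 410, against 140 to 217 in the other aged libraries. Col11a2, which encodes its partner chain, had a change with age of 0.30 (SE 0.19) in DG, although between rats of a group the pair varied together, with an SD of 0.36 for the log2 difference beside 0.49 and 0.38 for the genes.

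Collagen V, which starts fibrils together with collagen I, varied less. In DG, Col5a2 ran from 230 to 495 in young vehicle (median 412), from 418 to 699 in young LPS (median 470) and from 352 to 528 in aged vehicle (median 400). All 8 young LPS libraries lay above the young vehicle median, and the ranges overlapped. The log2 change with LPS was 0.38 (SE 0.13, limma adjusted p = 0.533), and 0.24 (SE 0.12) without the 3 rats, of which 2526 held the lowest value. In CA1, Col5a2 was 1215 in rat 2532, against 386 to 614 in the other aged rats. Col5a3 in CA1 ran from 273 to 482 in young vehicle (median 434), from 379 to 672 in young LPS (median 449) and from 324 to 525 in aged vehicle (median 383), and its change with LPS was 0.26 (SE 0.14, adjusted p = 0.654). Col24a1 was measured with a wide error. In CA1 it was listed at 0 in rat 2572, which allows up to 2.94 normalized reads (3 reads), and its change with age was 0.76 (SE 0.62). Over the 11 fibrillar chains of CA1 the median change was 0.20 with LPS, 8 of them above 0, where 52.2% of all genes were above 0. With age it was -0.16, 3 of them above 0, where 50.4% of all genes were. These medians were 0.10 and -0.072 without the 3 rats.

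The 6 chains of collagen IV are encoded by 3 pairs of neighbouring genes that face away from each other. In the RefSeq annotation of GRCr8 the starts of Col4a1 and Col4a2 on chromosome 16 lie 77 bases apart on opposite strands, those of Col4a3 and Col4a4 on chromosome 9 lie 413 apart, and those of Col4a5 and Col4a6 lie 1415 apart. The windows from 250 bases before to 50 bases after each start are printed below 5′ to 3′ on the gene's own strand for the pairs whose windows overlap, because the results on these genes are read by pair. Capitals mark the stretch that both windows of a pair hold, which in the second gene of a pair is the reverse complement of that in the first. The windows are chr16:84885347-84885646 (plus strand) for Col4a1, chr16:84885471-84885770 (minus strand) for Col4a2, chr9:91323740-91324039 (plus strand) for Col4a3 and chr9:91323528-91323827 (minus strand) for Col4a4.
Col4a1: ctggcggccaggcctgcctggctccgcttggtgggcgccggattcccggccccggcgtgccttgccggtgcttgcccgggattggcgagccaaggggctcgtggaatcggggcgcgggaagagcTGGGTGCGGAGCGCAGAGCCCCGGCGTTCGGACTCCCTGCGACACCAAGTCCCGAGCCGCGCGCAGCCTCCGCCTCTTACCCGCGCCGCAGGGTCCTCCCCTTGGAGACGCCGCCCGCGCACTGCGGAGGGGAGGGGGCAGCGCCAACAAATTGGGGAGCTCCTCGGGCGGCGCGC
Col4a2: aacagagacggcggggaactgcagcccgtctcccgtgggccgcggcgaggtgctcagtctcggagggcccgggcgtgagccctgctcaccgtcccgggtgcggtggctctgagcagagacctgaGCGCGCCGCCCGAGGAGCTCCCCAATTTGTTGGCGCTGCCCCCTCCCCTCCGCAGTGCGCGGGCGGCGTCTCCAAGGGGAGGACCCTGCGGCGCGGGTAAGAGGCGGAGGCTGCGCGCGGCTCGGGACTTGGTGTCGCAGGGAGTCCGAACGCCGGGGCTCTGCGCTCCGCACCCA
Col4a3: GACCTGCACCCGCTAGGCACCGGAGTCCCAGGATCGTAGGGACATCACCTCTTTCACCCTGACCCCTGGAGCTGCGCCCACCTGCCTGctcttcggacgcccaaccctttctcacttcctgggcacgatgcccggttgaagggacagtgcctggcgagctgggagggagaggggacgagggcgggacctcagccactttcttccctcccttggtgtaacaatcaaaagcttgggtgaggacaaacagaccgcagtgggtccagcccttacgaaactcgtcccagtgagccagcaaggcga
Col4a4: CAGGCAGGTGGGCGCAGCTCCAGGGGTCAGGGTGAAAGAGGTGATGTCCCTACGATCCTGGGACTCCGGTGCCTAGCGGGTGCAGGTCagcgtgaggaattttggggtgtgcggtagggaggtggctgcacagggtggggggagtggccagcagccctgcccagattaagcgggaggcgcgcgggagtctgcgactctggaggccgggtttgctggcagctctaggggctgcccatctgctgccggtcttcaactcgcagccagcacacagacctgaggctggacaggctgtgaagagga
The first pair shares 176 bases and the second 88. GC content was 75% for Col4a1 and 73.7% for Col4a2, against 62% for Col4a3 and 65.3% for Col4a4 and a median of 51.7% over 33469 windows of the same length.

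Col4a1 and Col4a2 encode the chains of collagen IV found in the basement membrane of every vessel. In DG, Col4a1 ran from 734 to 1086 normalized reads in young vehicle (median 864), from 697 to 1175 in young LPS (median 913) and from 576 to 837 in aged vehicle (median 746). All 6 aged libraries lay below the young vehicle median, with overlapping ranges. Its log2 change with age was -0.25 (SE 0.12, limma adjusted p = 1.00), with LPS 0.088 (SE 0.11, adjusted p = 0.889), and between young LPS and aged vehicle 0.34 (SE 0.12, adjusted p = 0.401). The last was 0.35 without the 3 rats.

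Col4a2 in DG ran from 709 to 1192 in young vehicle (median 967), from 742 to 1418 in young LPS (median 1085) and from 621 to 1075 in aged vehicle (median 943). The groups overlapped over most of their range. Its change was 0.13 with LPS and -0.11 with age, neither past the threshold. In CA1, Col4a1 ran from 687 to 932 in young vehicle (median 774), from 674 to 971 in young LPS (median 757) and from 483 to 990 in aged vehicle (median 631), where rat 2532 was the highest of all. Col4a2 in CA1 ran from 470 to 1245 in young vehicle (median 783), from 449 to 1057 in young LPS (median 795) and from 528 to 729 in aged vehicle (median 670). With age the changes in CA1 were -0.24 (SE 0.13, adjusted p = 0.404) for Col4a1 and -0.32 (SE 0.18, adjusted p = 0.407) for Col4a2. Neither passed. Of 11 markers of mural cells, which wrap capillaries, 0 were called with age in CA1 by limma and 2 had an unadjusted p below 0.05. Their median change was -0.20, with 3 above 0, beside 50.4% of all genes. The median over 14 endothelial markers was -0.096, with 5 above 0. The part of the vessel markers in these values was not tested.

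Between rats the first pair varied together in DG. Within groups the log2 SD in DG was 0.24 for Col4a1 and 0.29 for Col4a2, and only 0.17 for their difference, whose ratio of reads stayed between 0.649 and 1.05. In CA1 the difference had an SD of 0.30, beside 0.25 and 0.36 for the genes themselves. For Col4a3 and Col4a4, chains known from the kidney's filter, the SD of the difference was 0.43 in DG, beside 0.32 and 0.36 for the genes, and 0.43 in CA1, beside 0.48 and 0.37. In CA1 both pairs had 16 of 22 libraries on the same side of the group mean. These values are a description, and the libraries of a gene pair share depth and tissue.

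Across the 6 chains the changes with age in DG were all below 0, with a median of -0.23 beside 0.0059 for all genes, and the differences between young LPS and aged vehicle were all above 0, with a median of 0.40 beside -0.0083. Both statements hold without the 3 rats, and both rest on the same 6 aged libraries. Single chains did not pass: with age, Col4a1 and Col4a5 had an unadjusted p below 0.05, and between young LPS and aged vehicle Col4a1, Col4a3 and Col4a4 did. In CA1, 4 of 6 were above 0 with age, and 2 of 6 without the 3 rats. Vessel markers had like changes with age in DG: the median was -0.24 over 9 mural markers, 8 of them below 0, and -0.12 over 14 endothelial markers, 12 of them below 0. The median over 7 markers of CA1 pyramidal neurons was 0.76 there, 6 of them above 0, where 51.8% of all genes were above 0. Between young LPS and aged vehicle in DG the mural and endothelial medians were both 0.081, with 6 of 9 and 8 of 14 above 0. The pyramidal median was -0.55, with 1 of 7 above 0, where 48.0% of all genes were. None of these markers was called, and their part in the collagen IV values was not tested. Col4a5 is given by library as 1 of these chains. In DG it ran from 72.2 to 313 in young vehicle (median 160), from 97.1 to 213 in young LPS (median 146) and from 83.9 to 145 in aged vehicle (median 119), with rat 2572 the highest. In CA1 it was 573 in aged rat 2532, against 134 to 183 in the other aged rats, and 243 in rat 2526, against 126 to 169 in the other young vehicle rats.

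**Figure D3:**
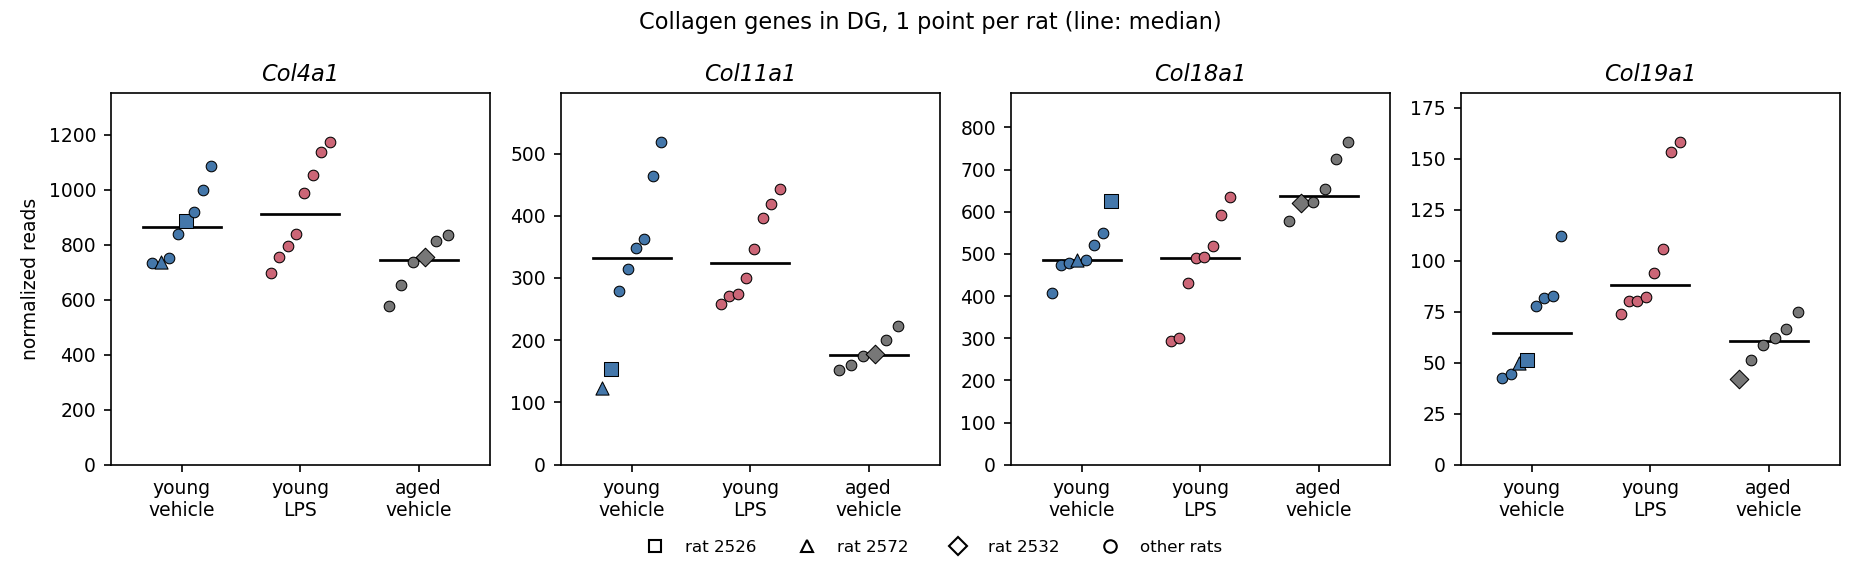
Normalized reads of Col4a1, Col11a1, Col18a1 and Col19a1 in DG, 1 point per rat, by group, with the group median as a line and 3 rats marked by shape. For Col11a1 the aged libraries (153 to 222) lie below all young LPS libraries (258 to 443), and the 2 marked young vehicle rats lie among or below the aged ones. For Col18a1 the aged libraries (577 to 766) lie above the young vehicle median.

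Collagen VI is assembled from Col6a1, Col6a2 and 1 further chain into beaded filaments next to basement membranes. No chain changed with LPS or age. In DG, rats 2572 and 2532 were low for Col6a1 and high for Col6a2, while over all 22 libraries 12 lay on the same side of their group mean for both. Col6a2 in DG ran from 70.1 to 454 in young vehicle (median 134), from 78.2 to 150 in young LPS (median 123) and from 87.2 to 260 in aged vehicle (median 173). Its 3 highest libraries were rats 2526 at 454, 2572 at 348 and 2532 at 260. Col6a1 in DG ran from 468 to 1105 in young vehicle (median 783), from 472 to 1076 in young LPS (median 746) and from 404 to 966 in aged vehicle (median 826). Rats 2532 and 2572 held its 2 lowest values, 404 and 468, and rat 2526 was at 669. The ratio of Col6a1 to Col6a2 reads ran from 1.35 in rat 2572 to 11.4 in rat 2571, with a median of 6.09, and the SD of their log2 difference was 0.88, larger than that of either gene (0.38 and 0.68). In CA1 the ratio ran from 0.649 to 2.65. In CA1, Col6a5 ran from 6.24 to 67.3, and in GRCr8 the spans of Col6a5 and Col6a6 overlap that of Rpl29, a ribosomal protein gene.

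**Figure D4:**
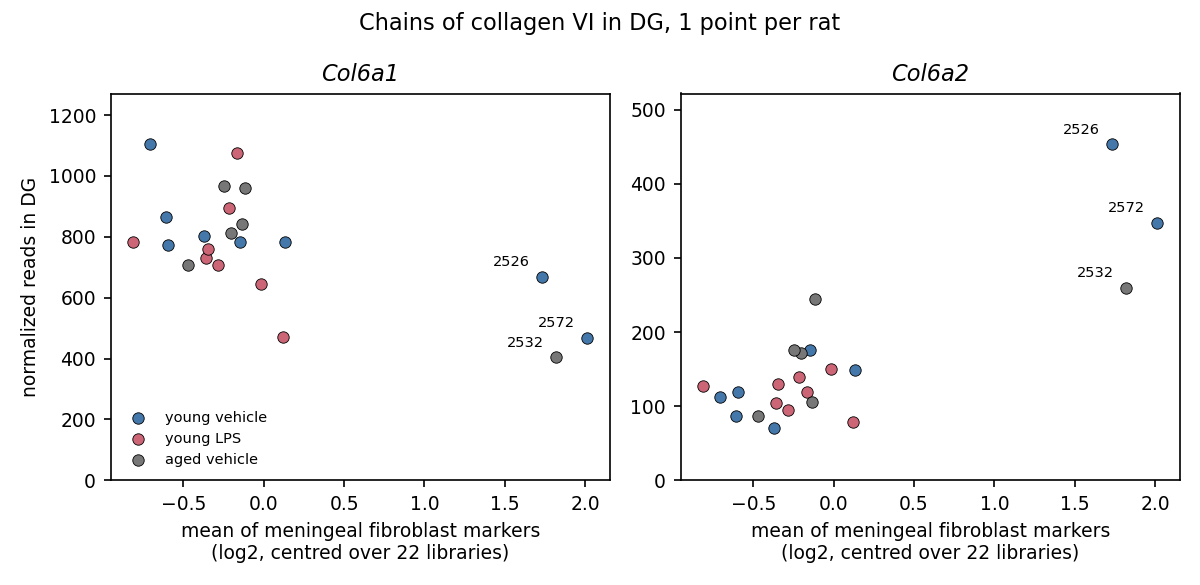
Normalized reads of Col6a1 (left) and Col6a2 (right) in DG against the mean of the meningeal fibroblast markers, 1 point per rat, coloured by group. The 3 rats at the right, with means of 1.73 to 2.01, hold the 3 highest values of Col6a2 and the 2 lowest of Col6a1 (404 and 468). Without them the slopes of both genes did not pass the threshold (adjusted p = 0.678 and 0.783, limma).

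Among the fibril-associated chains, which sit on the surface of fibrils, Col20a1 was the one collagen gene called. In CA1 it ran from 31.4 to 60.1 in young vehicle (median 43.9), from 41.9 to 84.9 in young LPS (median 54.9) and from 8.75 to 47.9 in aged vehicle (median 35.4). The lowest value was that of rat 2532, and all 8 young LPS libraries lay above the aged median, with overlapping ranges. Young LPS libraries averaged 59.2 ± 13.3 (SD, n = 8) and aged vehicle libraries 33.1 ± 13.1 (SD, n = 6), a log2 difference of 0.94 (SE 0.26, limma adjusted p = 0.0490). Without rat 2532 it was 0.61 (adjusted p = 0.119), and without all 3 rats 0.61 (adjusted p = 0.0974). Leaving out 1 rat at a time ended the call for 15 of the 22 rats, namely 2410, 2526, 2571, 2722, 2728 and 2731 of young vehicle, 2404, 2408, 2527, 2543 and 2717 of young LPS and 2415, 2420, 2531 and 2532 of aged vehicle. Over all alternatives the adjusted p lay between 0.0106 and 0.119. The changes against young vehicle were 0.41 with LPS and -0.53 with age, neither past the threshold. In the same comparison of CA1, 2 of 8 markers of oligodendrocyte precursors were called, with a median of 0.38 and 7 above 0, as were 2 of 11 mural markers (median 0.31, 10 above 0) and 2 of 14 endothelial markers (median 0.24, 11 above 0). Of all genes, 8.73% were called and 52.0% were above 0. Without rat 2532, limma called 0 of all genes tested in this comparison, so none of these markers either. No marker of the other marker lists was called. Their medians ran from -0.91 over 4 perivascular macrophage markers, with 0 above 0, to 0.32 over 3 blood markers. Rat 2532 had the lowest mean of the oligodendrocyte precursor markers in CA1, -0.73. The part of these markers in the value of Col20a1 was not tested. In DG the difference between young LPS and aged vehicle was 0.06. In GRCr8 the span of Col20a1 overlaps that of Chrna4, a nicotinic receptor subunit gene. Whether their exons overlap was not examined, and reads from any shared exonic bases could not be told apart without strand.

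Col19a1, a chain made by some hippocampal interneurons and needed for their synapses, ran in DG from 42.7 to 112 in young vehicle (median 64.6), from 74.1 to 158 in young LPS (median 88.2) and from 41.9 to 75.0 in aged vehicle (median 60.5). All 8 young LPS libraries lay above both other medians, but the ranges overlapped. The log2 change with LPS was 0.62 (SE 0.21, limma adjusted p = 0.522), and 0.51 (SE 0.22, adjusted p = 0.512) without the 3 rats. Between young LPS and aged vehicle it was 0.76 (SE 0.22, adjusted p = 0.277). In CA1 its changes were -0.16 with LPS and 0.18 with age. Chains of collagen IX, which coats cartilage fibrils, did not pass with LPS: Col9a2 and Col9a3 had changes of 0.31 and 0.27 in CA1 and of 0.29 and 0.26 in DG. Without the 3 rats these were 0.033 and 0.23 in CA1 and 0.17 and 0.24 in DG. In CA1 rat 2572 held the lowest value of Col9a2, 19.6. Col9a1, with 9 libraries at 10 or more in DG, and Col14a1, with 8, gave changes with SEs of 0.44 and 0.66 for LPS and are not read further.

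Col18a1 carries endostatin, a fragment that restrains vessel growth, and lies in basement membranes. In DG it ran from 406 to 624 in young vehicle (median 485), from 293 to 635 in young LPS (median 491) and from 577 to 766 in aged vehicle (median 638). All 6 aged libraries lay above the young vehicle median, with rat 2526 the highest young vehicle library. Its change with age was 0.40 (SE 0.14, limma adjusted p = 1.00), and young LPS was lower than aged vehicle by a log2 difference of -0.54 (SE 0.14, adjusted p = 0.241). Without the 3 rats the latter was -0.55 (adjusted p = 0.176). In CA1 its changes were -0.06 with LPS and -0.09 with age, and the LPS rat 2543 held 534, against 202 to 332 in the other LPS rats. Col15a1, the related chain, was listed at 0 in the DG of LPS rats 2543 and 2547, which allows up to 2.79 and 3.64 normalized reads, and its change with LPS there was -1.27 (SE 0.67, adjusted p = 0.689).

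Col8a2, which forms hexagonal networks beneath endothelia, was high in 2 of the DG libraries in which Col6a2 was high. It was 101 in rat 2572 and 90.5 in rat 2532, against at most 26.4 in the other young vehicle rats, at most 26.3 in the other aged rats and at most 42.2 in the LPS rats. Rat 2526 was at 19.7, so this chain was not raised in all 3. Its changes were 0.02 with LPS and -0.02 with age, and 0.41 (SE 0.37) and -0.066 without the 3 rats. Col25a1, a membrane-spanning collagen of neurons, had changes between -0.20 and 0.20 with LPS and age in both regions. Col7a1, of anchoring fibrils, had changes of 0.29 and 0.30 with LPS in CA1 and DG, and of -0.15 and 0.055 without the 3 rats. In CA1 rat 2572 held its lowest value, 5.89.

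Whether an effect differed between CA1 and DG was tested within each rat, over the 30 genes measured in both. For LPS, 0 of 30 differed (0.00683% of 14637 genes called), with 2 at an unadjusted p below 0.05, against 13% of all genes. Those were Col19a1, with a change in CA1 minus that in DG of -0.79 (SE 0.37, limma adjusted p = 0.379), and Col20a1, with 0.63 (SE 0.30, adjusted p = 0.379). For age, 0 of 30 differed (0% of all genes called), with 2 at an unadjusted p below 0.05, against 5.21%: Col4a5, with 0.81 (SE 0.29, adjusted p = 0.735), and Col11a2, with -0.52 (SE 0.22, adjusted p = 0.735). The CA1 value of Col4a5 includes rat 2532.

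How the collagen genes varied between libraries of the same group was then set against markers of neighbouring tissue. The slope is the log2 change of a gene for each log2 unit of the marker mean, with group in the fit. In DG, 10 of 31 collagen genes had a slope on the meningeal mean past the threshold (7.16% of all genes called), 5 positive and 5 negative. The positive ones were Col6a2 at 0.64 (SE 0.12, limma adjusted p = 0.000987), Col8a2 at 0.85, Col4a6 at 0.53, Col4a5 at 0.35 and Col4a4 at 0.29. The negative ones were Col6a1 at -0.35 (SE 0.069, adjusted p = 0.00208), Col11a1 at -0.40, Col27a1 at -0.29, Col11a2 at -0.29 and Col16a1 at -0.28. None of them passed without rats 2526, 2572 and 2532, nor did any other gene (0%). Col11a1, Col11a2, Col16a1 and Col27a1 then had slopes above 0, while Col6a1 kept its value with a wider error, -0.34 (SE 0.22, adjusted p = 0.678), and Col4a4 was at 0.86 (SE 0.24, adjusted p = 0.198). Without rat 2572 alone 2 passed, and without rat 2526 alone 5, with the shares of all genes called in these refits not given here.

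Slopes on the mural and endothelial means in DG were taken in the same way. The same 3 rats were high in those lists, and why slopes passed was not tested. On the mural mean 11 of 31 passed (12.7% of all genes called), 5 positive and 6 negative, and 0 without the 3 rats. On the endothelial mean 8 of 31 passed (9.02% of all genes called), 4 positive and 4 negative. The smallest p was that of Col6a2, at 1.99 (SE 0.27, adjusted p = 2.76e-05), and the steepest slope that of Col8a2, at 2.40 (adjusted p = 0.00896). Without rat 2572 alone 2 passed on the mural mean, without rat 2731 7, and on the endothelial mean 3 without rat 2572, 5 without rat 2526 and 5 without rat 2731. Shares of all genes called in these refits are not given here, so the counts have no background. Without the 3 rats 2 passed on the endothelial mean, Col4a4 at 1.52 (adjusted p = 0.0243) and Col2a1, with 3.74% of all genes called. On the choroid plexus mean 0 passed (0.00671% of all genes called), with 3 of 31 at an unadjusted p below 0.05. Of that list only 2 markers were tested in DG, and 1 had a called positive slope, so this fit could show little.

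**Figure D5:**
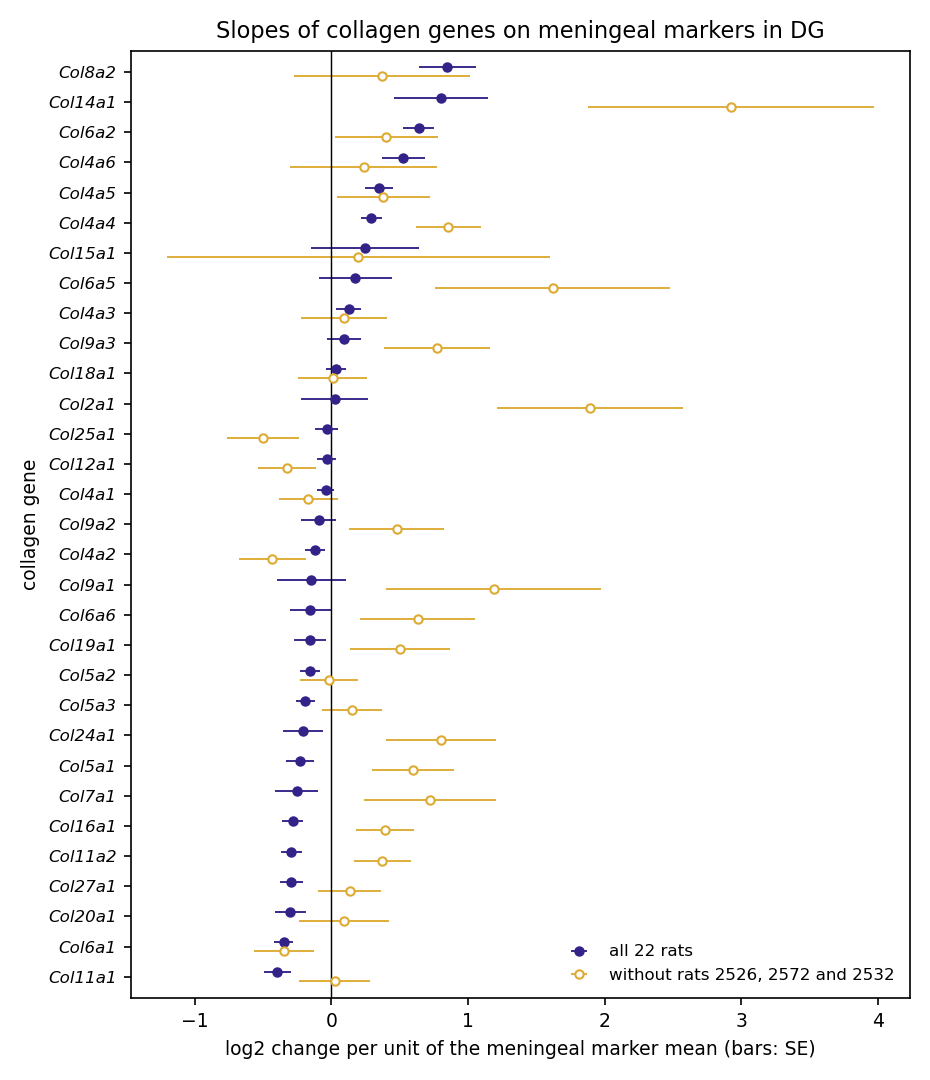
Slope of each collagen gene in DG on the meningeal marker mean (log2 change per log2 unit), with bars for the SE, over all 22 rats (filled) and without 3 rats (open). The slopes over all rats run from Col11a1 at -0.40 to Col8a2 at 0.85; without the 3 rats the errors are wider, and Col11a1, Col11a2, Col16a1 and Col27a1 lie above 0.

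In CA1 the meningeal mean was highest in rat 2526. Col3a1 was the one collagen gene with a slope past the threshold, 1.72 (SE 0.21, limma adjusted p = 0.000268, with 0.0402% of all genes called), and it also followed the choroid plexus mean, at 0.53 (adjusted p = 0.00316, 0.107% of all genes called). Without rat 2526 alone, or without the 3 rats, 0 of 33 passed on either mean, while 6.37% of all genes passed on the meningeal mean without the 3 rats. On the mural mean 0 of 33 passed (0% of all genes called), with 6 at an unadjusted p below 0.05. Of the 11 mural markers tested, 0 had a called positive slope on their own mean. The lack of calls on this mean therefore cannot show that a link is absent. On the endothelial mean 3 passed (3.79% of all genes called): Col1a2 at 3.08 (adjusted p = 0.0251), Col6a1 at -1.78 and Col11a1 at -2.30, where 2.10% of all genes had a positive and 1.70% a negative call. Leaving out 1 rat gave between 0 and 8 on that mean, 0 without rat 2572 or rat 2404 and 8 without rat 2532. It gave 1 without any of rats 2523, 2722, 2728, 2731, 2408, 2543, 2547, 2573, 2717, 2412 and 2531. For these refits without 1 rat, the shares of all genes called are not given here. Without the 3 rats Col6a1 remained, at -2.31 (adjusted p = 0.0115), 1 of 33 beside 4.99% of all genes. Which tissue the collagen reads of single libraries came from was not tested.

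Genes that make, bind and break down collagen were followed in the same fits. Of the 29 tested genes of collagen synthesis and cross-linking in CA1, limma called 0 with LPS and 0 with age, and 1 and 5 had an unadjusted p below 0.05. Of 28 in DG it also called 0 and 0, with 3 and 0 at an unadjusted p below 0.05. The shares of all genes at such a p were those given for the collagen genes, 6.87% and 12.6% in CA1 and 7.53% and 2.99% in DG. None was called for LPS or age among 7 collagen receptors, 10 collagen-degrading enzymes and inhibitors, 16 other matrix genes or 14 genes of TGF-beta signalling in either region, with between 0 and 3 of a list at an unadjusted p below 0.05. edgeR and DESeq2 also called 0 in all of these. Between young LPS and aged vehicle in CA1, 3 genes passed with limma (8.73% of all genes called), and all 3 with edgeR and DESeq2 too, which called 4 and 12 genes of these lists and 14.4% and 21.9% of all genes. With each tool, the share called over these lists together was below that of all genes. Without rat 2532, limma called 0 genes of all tested in this comparison. Ddr1, a receptor tyrosine kinase that binds collagen, was higher in young LPS at 2763 ± 748 (SD, n = 8) than in aged vehicle at 1754 ± 444 (SD, n = 6), a log2 difference of 0.65 (SE 0.19, limma adjusted p = 0.0490). Fbln2, a matrix glycoprotein of basement membranes, was higher by 0.44 (SE 0.14, adjusted p = 0.0497). Tgfbr1, a receptor of TGF-beta, which drives collagen production, was lower, with a difference of -0.57 (SE 0.16, adjusted p = 0.0490).

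In DG none of the 3 tools called a gene of these lists in that comparison. The smallest p of the synthesis genes was that of Loxl1, a collagen cross-linking oxidase, at -0.73 (SE 0.24, adjusted p = 0.329). Among the receptors it was that of Itga1, an integrin chain for collagen, at 0.70 (SE 0.22, adjusted p = 0.326). With LPS in DG, Colgalt1, which adds sugars to collagen lysines, had a change of -0.38 (SE 0.10, adjusted p = 0.515).

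For 26 of the 34 members RefSeq gave promoter windows of GRCr8, 29 in all. The GC box, GGGCGG on either strand, was present in 18 of the 29, against 33.1% of all 33469 windows. CCAAT on either strand was present in 8, against 37.5%, and TATAAA on either strand in 1, that of Col1a2, against 14.2%. The median GC content was 59.7%, against 51.7% over all windows. A match of these letters is a description of the window and names no bound factor.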

How the data were processed

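The authors deposited 1 table per region of normalized reads per gene, a signal obtained by dividing read counts by 1 number per library. The submitters' processing notes name STAR, Partek, DESeq2 and the rn6 build. What each did, its version, the gene models and whether counting used strand: not given in the sources used here. Each library was divided by its most frequent value above 0, taken as 1 read. Whole reads (within 0.1) were recovered for 99.7% of CA1 values and 99.9% of DG values, and libraries held 12130183 to 23519788 reads. The number of reads limits the precision of low genes, and the value of 3 reads is given for genes listed at 0; it covers counting error only.

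Values were tested as log2(value + 1) with limma 3.58.1 (trend, robust) in R 4.3.3, 1 fit per region with all 3 groups, keeping genes at 10 or more in at least 6 libraries. Fold changes are on that scale, which understates low genes. P-values are two-sided and adjusted over all genes (Benjamini-Hochberg), with a threshold of 0.05. All adjusted p-values printed are limma's unless another tool is named. CA1 and DG of a rat are paired by the animal number in the titles, and region differences were taken within rats. Slopes on marker means had the group in the fit. edgeR 4.0.16 and DESeq2 1.42.0 on recovered reads, other filters, pseudocounts, scaling, weights, covariates and libraries left out were alternatives. The analysis was tested on simulated data.

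The members, gene lists and marker lists were chosen with earlier results of these data known. Values by library are given for Col1a1, Col1a2, Col3a1, Col4a1, Col4a2, called members and the 2 members of smallest p in each comparison. Col6a1, Col6a2, Col8a2 and Col4a5 were added after their values were seen. From a partner list, called genes and the 2 of smallest p in a comparison were named. Protein sequences were not used here.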

Additional observations from a re-analysis of the deposited data

Results flagged for a closer look

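In 81 groups of libraries of 15 genes, 10 held a library far from the others of its group, where about 1 in 20 groups would by chance. The 15 genes include Col4a5, Col6a1, Col6a2 and Col8a2, which were added after their values were seen. Col4a5 and Col8a2 are among those flagged, so the number flagged cannot be set against that rate. In CA1, young vehicle rat 2526 was far above its group for Col1a1 at 252.8 normalized reads (next 138.3), for Col3a1 at 235.6 (next 62.8) and for Col4a5 at 242.9 (next 168.7). The same library held the highest choroid plexus and meningeal marker levels of CA1. Aged rat 2532 was far above its group in CA1 for Col4a5 at 573.2 (next 182.5), Col5a2 at 1215 (next 613.7) and Col11a1 at 409.8 (next 216.5). Its CA1 meningeal mean was 0.30. LPS rat 2543 was far above its group in CA1 for Col18a1 at 534.4 (next 332.1).

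In DG, young vehicle rat 2572 held Col8a2 at 100.6 (next 26.4) and aged rat 2532 at 90.5 (next 26.3). Both libraries were high in meningeal markers, and the part of these markers in the values was not tested. Aged rat 2411 held Col5a2 in DG at 527.9 (next 410.1).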

How the results depend on the processing

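With 1 exception, Col11a1, no collagen gene passed for LPS or age under any alternative run. For age, library weights called 1 gene in CA1 (Col11a1) and 1 in DG (Col11a1), and leaving out rats 2526, 2572 and 2532 called 1 in DG (Col11a1). For young LPS against aged vehicle in CA1, 0 genes were called with no filter, with a mean of at least 50, with the 2 groups alone, with mural markers in the fit and without the 3 rats, and 2 with library weights (Col4a1 and Col20a1), with the number series of the rats (Col1a1 and Col20a1) and with DESeq2 (Col20a1 and Col4a5). The filter of a mean of at least 50 removed Col20a1 before testing, so that setting did not retest its call. DESeq2 called 21.9% of all genes in this comparison of CA1, a larger share than that of the collagen genes. In DG the count was 1 (Col11a1) with the 2 groups alone, with mural markers and with DESeq2, and 2 (Col11a1 and Col18a1) with library weights. There DESeq2 called 0.148% of all genes. For the limma settings named in this paragraph so far, the shares of all genes called are not given here, so their counts have no background. Leaving out 1 rat at a time gave 0 to 1 in CA1 and 0 to 0 in every other comparison. Without the replicate block of the paired regions, 0 genes differed for LPS and 0 for age, and Col19a1 was at -0.79 (limma adjusted p = 0.375).

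With all 4 marker means in 1 fit, 0 slopes passed in CA1 (meningeal, endothelial, choroid plexus) and 0 in DG (meningeal, mural, endothelial). Without the 3 rats the counts were 0, 1 and 0 in CA1 and 0, 0 and 2 in DG. Leaving out 1 rat gave 0 to 1 (meningeal), 0 to 8 (endothelial) and 0 to 1 (choroid plexus) in CA1 and 2 to 10 (meningeal), 2 to 12 (mural) and 3 to 10 (endothelial) in DG. These ranges are printed without the shares of all genes called in the same refits.

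Leaving out the 3 rats turned the direction of 7 of 33 collagen genes with LPS, 6 with age and 6 between young LPS and aged vehicle in CA1, and of 6 of 31, 7 and 0 in DG. Among the genes followed through each alternative, these uncalled changes turned direction. With LPS in CA1, Col1a2 was 0.12 with weights and 0.14 without the 3 rats, Col1a1 was -0.0093 with the number series, -0.053 with edgeR and -0.048 with DESeq2, Col3a1 was -0.085 with meningeal and -0.053 with mural markers, -0.32 with edgeR and -0.31 with DESeq2, and Col4a1 was -0.013 with mural markers. With mural markers Col3a1 was 0.082 with age, and between young LPS and aged vehicle Col1a2 was -0.24 and Col3a1 -0.13. Col4a2 with age in DG was 0.060 with the number series. Leaving out 1 rat gave -0.18 to 0.034 for Col4a2, -0.028 to 0.052 for Col4a1 and -0.040 to 0.39 for Col3a1 with LPS in CA1, and -0.47 to 0.079 for Col3a1 with age. Slopes in DG with 4 means in 1 fit were, on the meningeal mean, Col4a5 -0.38, Col4a6 -0.33, Col6a2 -0.13, Col8a2 -0.19 and Col11a1 0.039, on the mural mean Col4a4 -0.69 and Col6a1 0.084, and on the endothelial mean Col6a1 0.49. Without the 3 rats they were, on the meningeal mean, Col11a1 0.025, Col11a2 0.37, Col16a1 0.40 and Col27a1 0.14, and on the mural mean Col11a2 0.30 and Col16a1 0.69. The cause was not tested.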
